A study of Mus musculus with 9 samples.

Results

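The voltage-gated sodium and calcium channel genes are the genes whose products let sodium or calcium into excitable cells when the membrane depolarises, together with their accessory subunits. They were taken as the protein-coding mouse genes whose symbol is Scn followed by a digit or starts with Cacna, Cacnb or Cacng, with at least 10 counts in at least 3 libraries. Of 40 such genes in a table of 27179 gene identifiers, 35 met the count rule, 11 of them sodium channel genes and 24 calcium channel genes. All 35 entered the test, and 15234 protein-coding genes met the same count rule. Spinal cords came from 9 mice of strain C57BL/6, 3 per group, and each gave 1 RNA library. One group had experimental autoimmune encephalomyelitis (EAE) and received an oral compound, EHP-101, dosed at 20 mg/kg (group EAE+EHP-101), the next had EAE with no compound named, and the last was Control. EAE models multiple sclerosis in mice: immune cells enter the cord and myelin is damaged. The labels give neither the immunising antigen, the age or sex of the mice, the time of sampling, nor what Control and EAE mice received in place of the compound.

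A voltage-gated sodium channel is built from 1 large alpha subunit, which forms the pore and carries the rising phase of the action potential, and from beta subunits that modulate gating and act as adhesion molecules. In myelinated axons these channels are packed at the axon initial segment and the nodes of Ranvier. A high-voltage calcium channel has a pore-forming alpha1 subunit, a cytoplasmic beta subunit and an extracellular alpha2delta subunit, and at nerve terminals its calcium triggers transmitter release. Most gamma subunit genes encode proteins that accompany AMPA-type glutamate receptors to the synapse rather than calcium channel subunits. In demyelinated axons, redistribution of sodium channels and entry of sodium and calcium are established topics of research.

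The 9 libraries held 30448507 to 32661741 counts, and levels are given as CPM, with library sizes adjusted by TMM factors. Levels of different genes are compared as CPM per kilobase of exon length (CPM per kb). Changes are log2 fold changes with standard errors from the quasi-likelihood test of edgeR over 16749 genes, and a gene was called when its Benjamini-Hochberg adjusted p was under 0.05. Control replicate 1 had a summed level of 64.6 CPM over 11 skeletal muscle genes, against 5.08 to 7.85 CPM in the other 8 libraries. Control replicate 3 was the Control library least like the others: the chi-square per degree of freedom of its counts was 27.5 and 25.1 against replicates 1 and 2, which gave 8.49 between them. Its 7 oligodendrocyte markers summed to 38670 CPM, against 28424 and 29018 CPM in Control replicates 1 and 2, and its 7 endothelial markers to 202 CPM, against 315 and 291 CPM. Without Control replicate 3, 20 channel genes were called lower in EAE against Control, 14 in EAE+EHP-101 against Control and 0 in EAE+EHP-101 against EAE. Over all tested genes 3696, 2065 and 921 were then called lower, where all libraries gave 2800, 1645 and 805. EAE+EHP-101 replicate 1 lay closer to the Control libraries than the other EAE+EHP-101 libraries did on the first principal component of all genes, at -22.2 against 8.36 and 15.2, with the Control libraries between -47.2 and -40.9. Without Control replicate 1 and EAE+EHP-101 replicate 1, a choice made after the data were seen, 17 of the 35 channel genes were called lower in EAE against Control, 11 in EAE+EHP-101 against Control and 0 in EAE+EHP-101 against EAE, where all libraries gave 16, 9 and 0. The counts over all tested genes were then 2758, 1574 and 537. Cell type values are given at the end of the results they touch, since in whole cord fewer cells of a type and less RNA per cell cannot be told apart.

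Sodium channel alpha subunits in the cord were mostly of 2 kinds. In Control cords Scn1a, which encodes a channel prominent in fast-spiking interneurons, stood at 65.8 ± 2.26 CPM per kb (SD, n = 3 here and below), and Scn8a, the main channel of mature nodes of Ranvier, at 40.4 ± 6.90. Scn2a, a channel of initial segments and unmyelinated axons, followed at 13.2 ± 1.2 and Scn3a, which is most active before birth, at 3.71 ± 0.572 CPM per kb. Scn9a, best known from pain-sensing neurons, reached 1.57 ± 0.184 and the sodium sensor gene Scn7a 1.11 ± 0.0898 CPM per kb. Neighbours in this order did not overlap within 1 SD in Control cords.

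Among beta subunits of sodium channels Scn4b stood at 152 ± 17.3 CPM per kb in Control cords, Scn2b at 36.3 ± 2.57 and Scn3b at 8.87 ± 2.11. Among calcium channel alpha1 subunits Cacna1a, of the P/Q-type channel of motor and central synapses, led at 16.2 ± 3.15 CPM per kb. Cacna1g, Cacna1e and Cacna1b, at 10.03 ± 1.6, 9.81 ± 1.18 and 8.79 ± 1.35, did not differ beyond their SDs. Cacna1i, Cacna1c, Cacna1d and Cacna1h lay between 6.32 and 3.58 CPM per kb, and the retinal gene Cacna1f and the skeletal muscle gene Cacna1s at 0.0743 and 0.0555. The gamma subunit gene Cacng7, at 78.7 ± 6.80 CPM per kb, was above every other calcium channel gene.

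The 5 family genes below the count rule were near 0 in every library. Scn10a and Scn11a, the channels that mark pain-sensing dorsal root ganglion neurons, had 10 and 24 counts over the 9 libraries together, and the skeletal muscle genes Scn4a and Cacng1 had 38 and 21. Cacng6 had 8 counts. The other ganglion markers were low as well: Trpv1, Mrgprd and Prdm12 did not enter the test, and 7 ganglion genes summed to 8.73 to 8.81 CPM in EAE+EHP-101, 8.06 to 10.3 CPM in EAE and 6.75 to 9.53 CPM in Control libraries.

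Channel genes were called lower in EAE against Control more often than all tested genes were. In EAE against Control 16 of the 35 genes were called lower, or 45.7% of them, while 16.7 percent of all tested genes were called lower. Long genes were called lower more often in general. Among genes of at least 6260 bases, the median exon length of the 35, 66.7% of channel genes and 55.7% of all genes were. Among shorter genes the shares were 23.5% and 12.7%. A single gene, Cacna1s, was called higher, against 20.2 percent of all genes. The libraries of the groups did not overlap, with every EAE library lower, for 14 of the 35 genes, and for 21.1 percent of all genes. The median log2 difference over the 35 genes was -0.32, and over all genes 0.01. Sodium channel alpha subunits had 5 of 7 genes called lower, calcium channel alpha1 subunits 5 of 10, sodium beta subunits 1 of 4, alpha2delta subunits 2 of 4, calcium beta subunits 2 of 4 and gamma subunits 1 of 6.

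**Figure D1:**
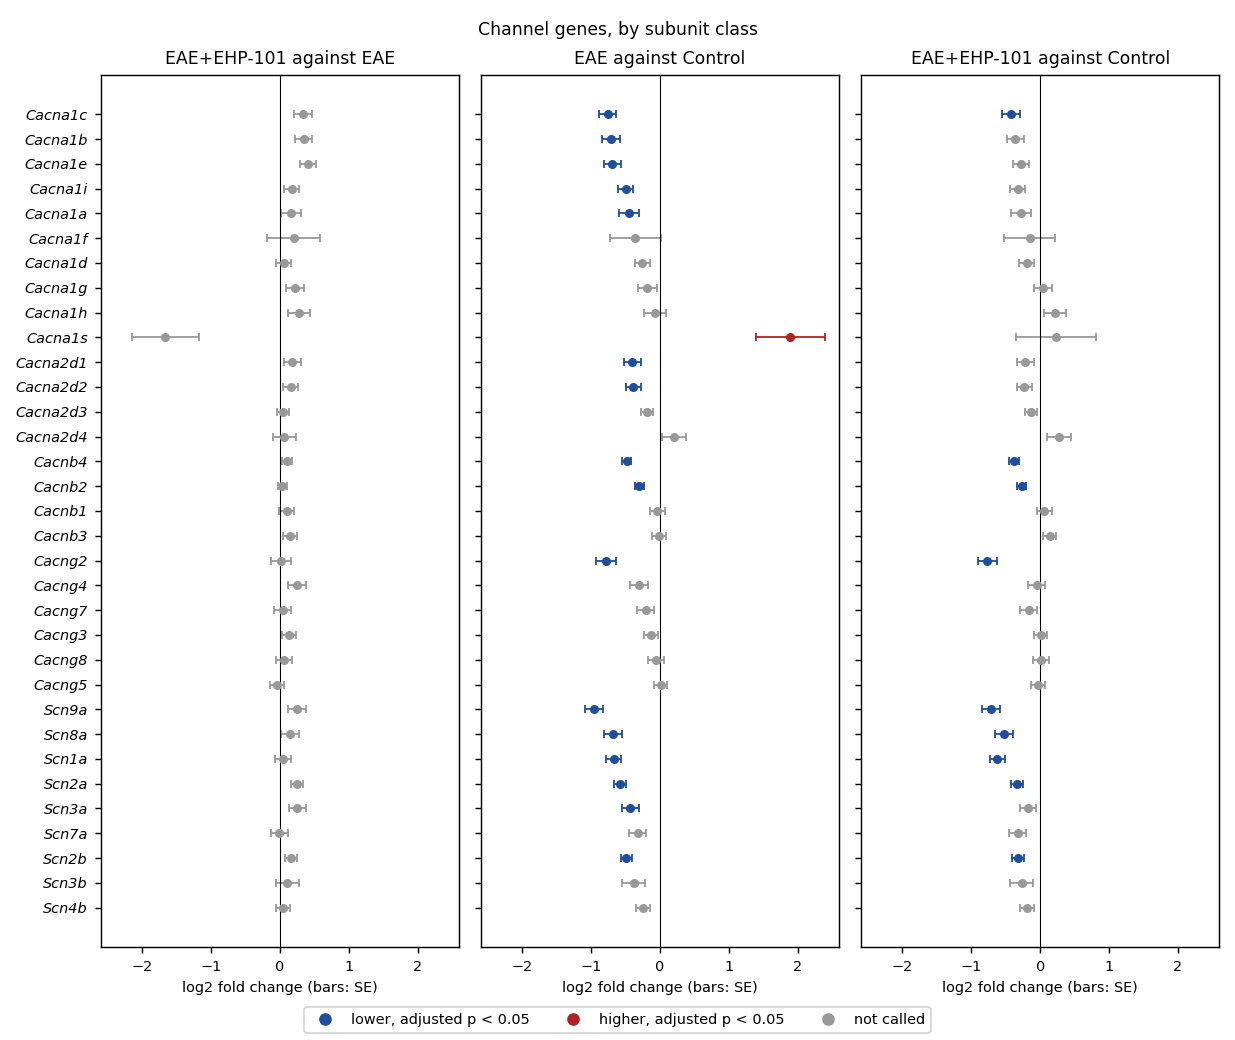
Log2 fold changes of channel genes (points, with standard errors as bars) in EAE+EHP-101 against EAE, EAE against Control and EAE+EHP-101 against Control, ordered by subunit class. In the middle panel 16 genes are lower and Cacna1s is higher, in the left panel no gene is called, and in the right panel 9 genes are lower.

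The largest fall among the alpha subunits was that of Scn9a (chromosome 2, 66480080-66634952, minus strand, mm10). It had 10.01, 10.3 and 7.88 CPM in EAE+EHP-101 cords, 7.37, 7.46 and 8.86 CPM in EAE cords and 13.3, 16.8 and 15.96 CPM in Control cords. All 3 EAE libraries and all 3 EAE+EHP-101 libraries lay below the lowest Control library. Scn9a was lower in EAE by a log2 difference of -0.96 (SE 0.13, edgeR adjusted p = 0.000307), a fold of 0.514, and in EAE+EHP-101 against Control by -0.71 (adjusted p = 0.00701). Exons of Scn9a share 319 bases, 3.25% of its length, with the gene Gm13629 on the opposite strand. Without the strand setting of the counting, which is not given in the sources used here, the reads there cannot be assigned.

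Scn1a, the most abundant alpha subunit, had 397, 339.7 and 327 CPM in EAE+EHP-101 cords, 315, 299 and 413 CPM in EAE cords and 567, 536 and 534 CPM in Control cords. EAE replicate 3 was the highest of the 6 diseased libraries and still below every Control library. The log2 difference was -0.67 (SE 0.11, edgeR adjusted p = 0.00106) in EAE against Control and -0.62 (adjusted p = 0.00711) in EAE+EHP-101 against Control. Scn8a had 352, 293 and 307 CPM in EAE+EHP-101 cords, 279, 248 and 329 CPM in EAE cords and 522, 479.6 and 371 CPM in Control cords. Control replicate 3 was well below the other Control libraries, and the groups still did not overlap. Scn8a was lower in EAE by -0.68 (SE 0.13, adjusted p = 0.00225) and in EAE+EHP-101 against Control by -0.53 (adjusted p = 0.0196). The second of these calls was lost without Control replicate 1 (adjusted p = 0.0538) or 2 (0.0575), or without EAE+EHP-101 replicate 2 (0.0935) or 3 (0.0717).

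Scn2a had 96.2, 89.9 and 86.3 CPM in EAE+EHP-101 cords, 84.7, 69.5 and 75.6 CPM in EAE cords and 103, 118 and 123 CPM in Control cords. Its EAE+EHP-101 libraries lay between the other groups, above every EAE library and below every Control library. Scn2a was lower in EAE by -0.58 (SE 0.09, edgeR adjusted p = 0.000527) and in EAE+EHP-101 against Control by -0.33 (adjusted p = 0.0228), the second call being lost without Control replicate 2 (0.0575) or EAE+EHP-101 replicate 2 (0.0873) or 3 (0.0858). Scn3a had 32.1, 31.7 and 30.6 CPM in EAE+EHP-101 cords, 30.9, 24.8 and 23.2 CPM in EAE cords and 29.7, 36.4 and 40.5 CPM in Control cords. EAE replicate 1 lay above Control replicate 1, so that these groups overlapped. The log2 difference of Scn3a in EAE was -0.43 (SE 0.12, adjusted p = 0.0164), and without EAE replicate 3 it was -0.36 (adjusted p = 0.0522).

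Scn7a was not called in EAE (log2 -0.32, SE 0.13, edgeR adjusted p = 0.0640), although its 3 EAE libraries, at 5.48 to 7.24 CPM, lay below its 3 Control libraries, at 7.37 to 8.52 CPM. Leaving out Control replicate 2 (adjusted p = 0.0418) or EAE replicate 3 (0.0374) gave a call. Scn1a, Scn2a, Scn3a, Scn7a and Scn9a lie in 1 cluster on chromosome 2, between bases 65457118 and 66784910 of mm10, while Scn8a lies on chromosome 15.

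**Figure D2:**
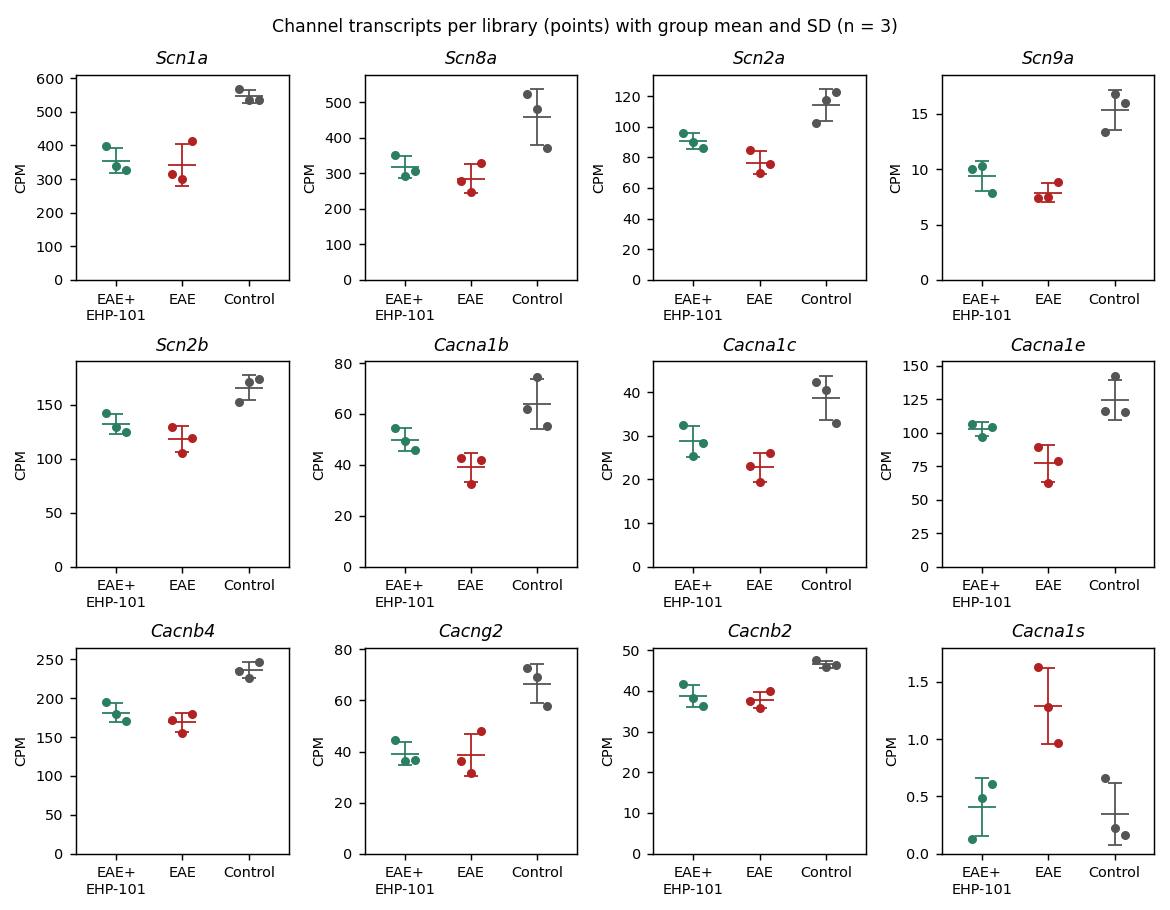
CPM of 12 channel genes in each library (points), with the mean and SD of each group (n = 3), in EAE+EHP-101, EAE and Control cords; each panel has its own axis, which starts at 0. Scn1a and Cacng2 of EAE+EHP-101 cords sit near those of EAE cords, Cacna1e and Scn2a lie between the other groups, and Cacna1s is highest in EAE cords.

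Scn2b was the sodium channel beta subunit gene that passed the test. It had 142, 129 and 125 CPM in EAE+EHP-101 cords, 129.8, 106 and 119 CPM in EAE cords and 152, 171 and 174 CPM in Control cords. The log2 difference in EAE was -0.49 (SE 0.08, edgeR adjusted p = 0.00126), and every EAE library lay below every Control library. In EAE+EHP-101 against Control it was -0.33 (adjusted p = 0.0227), a call lost without Control replicate 2 (0.0576) or EAE+EHP-101 replicate 2 (0.0917) or 3 (0.0871). Scn4b, which lies beside Scn2b on chromosome 9 and encodes the subunit linked to resurgent sodium current, gave -0.24 (adjusted p = 0.0740) in EAE and was called without Control replicate 3 (0.0190) or EAE replicate 3 (0.0156). Scn3b gave -0.38 (adjusted p = 0.0885) and was called without Control replicate 1 (0.00660) or EAE replicate 1 (0.0302).

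The presynaptic calcium channels of the N type and R type fell in EAE. Cacna1b, which encodes the N-type channel of nociceptive and other terminals, had 54.7, 49.2 and 45.8 CPM in EAE+EHP-101 cords, 42.9, 32.6 and 41.9 CPM in EAE cords and 62.1, 74.7 and 55.4 CPM in Control cords. Every EAE library lay below every Control library, and every EAE+EHP-101 library lay between them. Its log2 difference in EAE was -0.71 (SE 0.13, edgeR adjusted p = 0.00134). Cacna1e, of the R-type channel, had 106, 96.5 and 105 CPM in EAE+EHP-101 cords, 89.6, 62.7 and 79.0 CPM in EAE cords and 116, 142 and 115 CPM in Control cords. It was ordered in the same way, with a log2 difference in EAE of -0.69 (SE 0.12, adjusted p = 0.00119).

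The P/Q-type gene Cacna1a had 116, 98.5 and 101.5 CPM in EAE+EHP-101 cords, 96.2, 77.4 and 108 CPM in EAE cords and 149, 136 and 100.4 CPM in Control cords. Control replicate 3 lay below EAE replicate 3, and the groups overlapped. The log2 difference of -0.45 (SE 0.15, edgeR adjusted p = 0.0310) was no longer called without Control replicate 1 (0.0865), Control replicate 2 (0.0766), EAE replicate 1 (0.0647) or EAE replicate 2 (0.0911). Mutations of Cacna1a cause ataxia in mice.

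Among L-type genes Cacna1c, the widespread neuronal, vascular and cardiac form, had 32.5, 25.4 and 28.3 CPM in EAE+EHP-101 cords, 23.0, 19.3 and 25.9 CPM in EAE cords and 42.4, 40.4 and 32.9 CPM in Control cords. It was lower in EAE by -0.76 (SE 0.13, edgeR adjusted p = 0.00101), with no overlap. In EAE+EHP-101 against Control it was lower by -0.42 (adjusted p = 0.0375). That call was lost without Control replicate 1 (0.0941) or 2 (0.0959), EAE replicate 1 (0.0545), or EAE+EHP-101 replicate 2 (0.150) or 3 (0.105), and with library totals in place of TMM factors (0.0523). Cacna1d, the other neuronal L-type gene, gave -0.25 (adjusted p = 0.0985) in EAE and -0.41 (0.00378) without Control replicate 3. It shares 528 exon bases, 5.71% of its length, with Chdh on the opposite strand. Cacna1f, below 1 CPM in every library, gave -0.36 with a 95% interval of -1.18 to 0.47.

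The 3 T-type genes, whose channels open near the resting potential and support burst firing, did not move as 1 group. Cacna1i had 53.9, 45.9 and 48.1 CPM in EAE+EHP-101 cords, 45.0, 38.7 and 47.6 CPM in EAE cords and 65.0, 69.3 and 51.3 CPM in Control cords. Cacna1i was lower in EAE, with no overlap, by -0.50 (SE 0.11, edgeR adjusted p = 0.00553). Cacna1g gave -0.18 (adjusted p = 0.309) and Cacna1h -0.07 (adjusted p = 0.771), and both were called lower only without Control replicate 3 (0.0451 and 0.0242). Cacna1h shares 156 exon bases, 1.90% of its length, with Tpsg1 on the opposite strand.

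Both alpha2delta genes whose products bind gabapentin passed the test in EAE. Cacna2d2 had 93.3, 79.7 and 83.6 CPM in EAE+EHP-101 cords, 81.8, 65.1 and 82.7 CPM in EAE cords and 102, 111 and 87.8 CPM in Control cords. Its groups did not overlap, and the log2 difference was -0.39 (SE 0.11, edgeR adjusted p = 0.0153). Cacna2d1 had 95.1, 91.9 and 89.5 CPM in EAE+EHP-101 cords, 93.5, 74.8 and 75.4 CPM in EAE cords and 85.7, 112 and 124 CPM in Control cords. Control replicate 1 lay below EAE replicate 1, and the difference of -0.40 (SE 0.12, adjusted p = 0.0250) was not called without Control replicate 2 (0.0612) or 3 (0.0532), or without EAE replicate 2 (0.0707) or 3 (0.0703). Cacna2d3, the most abundant of the class per kb, gave -0.19 (adjusted p = 0.118), and Cacna2d4, known from the retina, 0.20 (adjusted p = 0.388). Cacna2d3 was called without Control replicate 2 (0.0434) or 3 (0.0390).

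Of the cytoplasmic beta subunits, which carry the pore to the membrane, Cacnb4 and Cacnb2 fell. Cacnb4, mutated in the lethargic mouse, had 195, 180.1 and 170.2 CPM in EAE+EHP-101 cords, 172, 156 and 179 CPM in EAE cords and 236, 226 and 247 CPM in Control cords. Its Control libraries lay within a narrow range above all others. The log2 difference was -0.49 (SE 0.07, edgeR adjusted p = 0.000482) in EAE and -0.38 (adjusted p = 0.00767) in EAE+EHP-101 against Control. Cacnb2 had 41.6, 38.2 and 36.3 CPM in EAE+EHP-101 cords, 37.4, 35.9 and 39.9 CPM in EAE cords and 47.5, 45.9 and 46.4 CPM in Control cords. Its differences were -0.30 (SE 0.07, adjusted p = 0.00474) and -0.27 (adjusted p = 0.0203), the second lost without EAE+EHP-101 replicate 2 (0.0837) or 3 (0.0849). Cacnb1, the muscle and neuronal form, and Cacnb3 gave -0.04 (95% interval -0.28 to 0.21) and -0.01 (interval -0.23 to 0.20) in EAE.

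A single gamma subunit gene fell, Cacng2, which encodes stargazin, an AMPA receptor partner whose loss gives the stargazer mouse ataxia and absence seizures. It had 44.4, 36.5 and 36.5 CPM in EAE+EHP-101 cords, 36.4, 31.6 and 47.9 CPM in EAE cords and 72.9, 69.1 and 57.9 CPM in Control cords. All 6 EAE and EAE+EHP-101 libraries lay below all 3 Control libraries. The log2 difference was -0.78 (SE 0.14, edgeR adjusted p = 0.00155) in EAE and -0.77 (adjusted p = 0.00733) in EAE+EHP-101 against Control. Cacng2 made up 11.6 ± 0.544% of the summed gamma level in EAE+EHP-101 cords, 11.9 ± 0.843% in EAE cords and 17.1 ± 0.892% in Control cords. The related AMPA receptor partners Cacng3, Cacng4 and Cacng8 gave -0.13, -0.30 and -0.05 in EAE, with adjusted p = 0.328, 0.0776 and 0.760. Cacng5 and Cacng7, of the second type of these partners, gave 0.01 and -0.21 (adjusted p = 0.953 and 0.207). Cacng4 was called without Control replicate 1 (0.0456) or EAE replicate 1 (0.0305), and Cacng7 without EAE replicate 3 (0.0172).

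Cacna1s, the voltage sensor of skeletal muscle, was the only channel gene called higher in EAE. It had 0.128, 0.485 and 0.608 CPM in EAE+EHP-101 cords, 1.63, 1.28 and 0.967 CPM in EAE cords and 0.657, 0.221 and 0.164 CPM in Control cords. The counts behind these levels were 4, 15 and 19 in EAE+EHP-101, 54, 40 and 31 in EAE and 20, 7 and 5 in Control libraries. Every EAE library was above every other library. The log2 difference in EAE was 1.89 (SE 0.50, edgeR adjusted p = 0.0124), and it was no longer called without Control replicate 2 (1.62, adjusted p = 0.0603) or without EAE replicate 1 (1.68, adjusted p = 0.05001).

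The skeletal muscle list had its highest sum in 1 library, Control replicate 1, which also had the most Cacna1s counts of the Control libraries. Its 11 genes summed to 5.63 to 6.91 CPM in EAE+EHP-101, 6.34 to 7.85 CPM in EAE and 5.08, 6.17 and 64.6 CPM in Control libraries, the last being replicate 1. The muscle channel genes Scn4a and Cacng1 had at most 6 counts in any library. A list of 8 T cell genes summed to 4.54 to 12.5 CPM in EAE+EHP-101, 17.6 to 22.6 CPM in EAE and 3.78 to 4.13 CPM in Control libraries, and 8 of 8 were called higher in EAE. Other lists were also highest in all 3 EAE libraries. The 6 monocyte markers summed to 26.6 to 75.1 CPM in EAE+EHP-101, 401 to 567 CPM in EAE and 9.33 to 15.01 CPM in Control libraries, and the 7 microglial markers to 441 to 619.6 CPM, 836 to 1117 CPM and 363 to 454 CPM in the same order of groups. The 6 fibroblast markers summed to 114 to 139 CPM in EAE+EHP-101, 223 to 236 CPM in EAE and 115 to 116 CPM in Control libraries, and the 7 astrocyte markers to 6894 to 7342 CPM, 8026 to 9940 CPM and 6081 to 7644 CPM. The part of these cells in the level of Cacna1s was not tested.

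Summed over a class, sodium channel alpha subunits differed most between EAE and Control. The sums were not corrected for the length trend of the libraries, described below, and whether this order holds after such a correction was not tested. The sodium channel alpha genes are long, from 7333 bases in Scn7a to 11324 in Scn8a. Their summed level was 95.7, 82.7 and 81.6 CPM per kb in EAE+EHP-101 cords, 77.5, 70.2 and 92.1 in EAE cords and 132, 127 and 119 in Control cords. The EAE mean was 0.634 times the Control mean, and the libraries did not overlap (exact permutation test of the means, two-sided, p = 0.1, the smallest value that 3 against 3 libraries allow). Sodium channel beta subunits summed to 378 ± 13.1, 364 ± 24.8 and 383 ± 32.0 CPM per kb in EAE+EHP-101, EAE and Control cords, with overlapping libraries and an exact p = 0.6 for EAE against Control. Calcium channel alpha1 subunits summed to 54.2 ± 3.44, 45.9 ± 6.45 and 62.8 ± 9.35 in the same order of groups, alpha2delta subunits to 54.8 ± 2.29, 50.8 ± 3.40 and 62.1 ± 2.17, calcium beta subunits to 52.6 ± 3.25, 49.1 ± 3.26 and 59.6 ± 0.249, and gamma subunits to 116 ± 10.5, 111 ± 16.1 and 135 ± 10.4 CPM per kb.

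**Figure D3:**
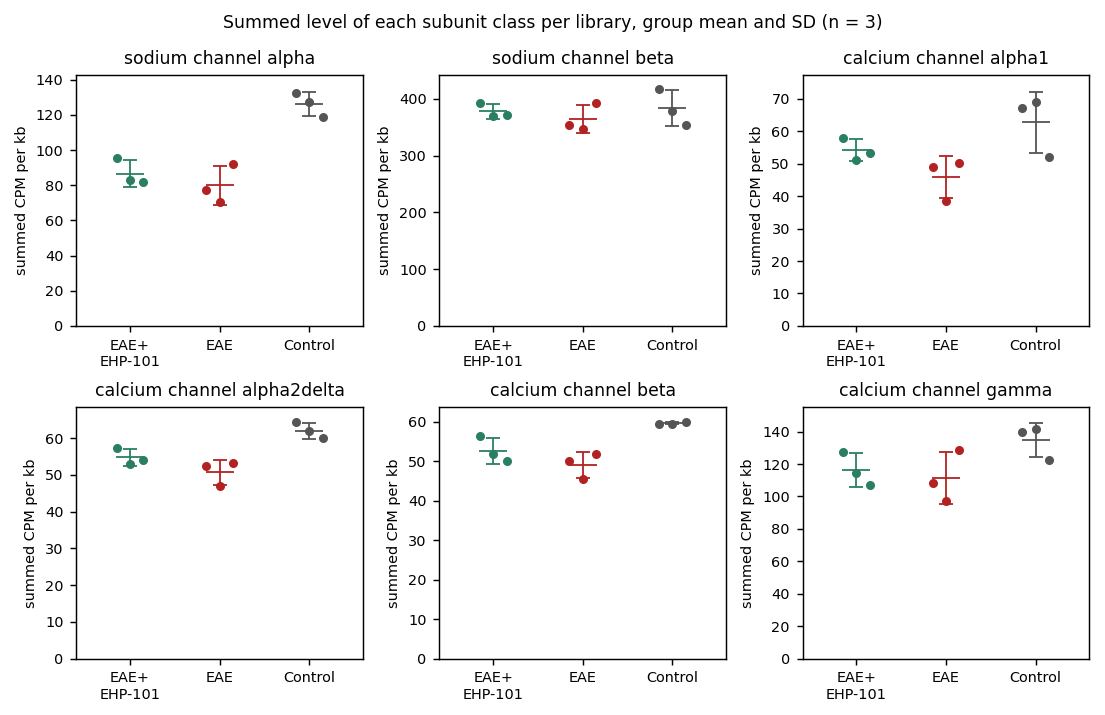
Summed CPM per kb of each subunit class in every library (points), with the mean and SD of each group (n = 3). Sodium channel alpha subunits of all EAE+EHP-101 and EAE libraries lie below all Control libraries, while sodium channel beta subunits overlap in all 3 groups. The sums are not corrected for the length trend of the libraries.

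The mix of subunits within a class was read as shares of its summed level. Scn1a was 49.3 ± 0.854% of the summed alpha subunit level in EAE+EHP-101, 51.5 ± 2.54% in EAE and 52.3 ± 1.83% in Control cords, and Scn8a 32.3 ± 0.985%, 31.5 ± 0.307% and 31.9 ± 3.82% in the same order of groups. Cacnb4 was 41.7 ± 0.441% of calcium beta subunits in EAE+EHP-101, 41.5 ± 0.331% in EAE and 47.9 ± 1.96% in Control cords. The T-type gene Cacna1g was 19.0 ± 0.109% of alpha1 subunits in EAE+EHP-101, 19.2 ± 0.821% in EAE and 15.97 ± 0.771% in Control cords, and Cacna1h 7.66 ± 0.469%, 7.51 ± 0.900% and 5.63 ± 0.749%. For Cacnb4, Cacna1g and Cacna1h the EAE and Control libraries did not overlap (exact permutation tests, two-sided, p = 0.1 each, the smallest that this design allows). The same held for the shares of other genes, among them Cacna1d, Cacnb1 and Scn4b. Shares were not corrected for the length trend, and Cacnb4, at 8280 bases, is the longest of the calcium beta genes.

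Channel genes are long, and in these libraries levels moved with gene length. Exon lengths of the 35 genes ran from 828 bases in Cacng7 to 12697 bases in Cacna1e, with a median of 6260, and 90.7% of all tested genes were shorter than that median. Across genes, which are not independent replicates, the EAE against Control log2 difference had a Spearman rho with length of -0.55 over the 35 channel genes and -0.40 over all tested genes. Among genes of at least 6260 bases 12 of 18 channel genes (66.7%) and 55.7% of all 1559 genes were called lower. Among shorter genes 4 of 17 channel genes (23.5%) and 12.7% of all genes were. The correlation of gene length with the level of each library relative to the others was 0.182 to 0.288 in Control, -0.214 to -0.142 in EAE, and 0.0144, -0.234 and -0.138 in EAE+EHP-101 replicates 1, 2 and 3, so length and disease cannot be told apart as a source of these falls.

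When the length trend of each library was removed before the test, 13 channel genes (37.1%) were called lower in EAE, against 10.1 percent of all genes, and Cacna1s higher, against 15.3 percent of all genes. Of the 17 genes called before, 12 stayed called. Cacna1a, Cacna1i, Cacna2d1, Cacna2d2 and Scn3a were not called, while the short genes Cacng4 (-0.53, edgeR adjusted p = 0.0100) and Cacng7 (-0.48, adjusted p = 0.0327) were. Scn9a then gave -0.65 (adjusted p = 0.00357), Scn1a -0.41 (0.0116), Cacng2 -0.79 (0.00207), Cacna1b -0.48 (0.00747) and Scn2b -0.38 (0.00488). The median over the 35 genes was -0.20, and the rho with length -0.02. Cacng2, at 2887 bases, and Scn2b, at 4562, are below the median length of the 35 genes and above that of all tested genes, 2765 bases. With all alternatives counted, 8 genes were called lower in EAE in each: Scn1a, Scn2a, Scn9a, Scn2b, Cacna1b, Cacna1c, Cacna1e and Cacng2.

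**Figure D4:**
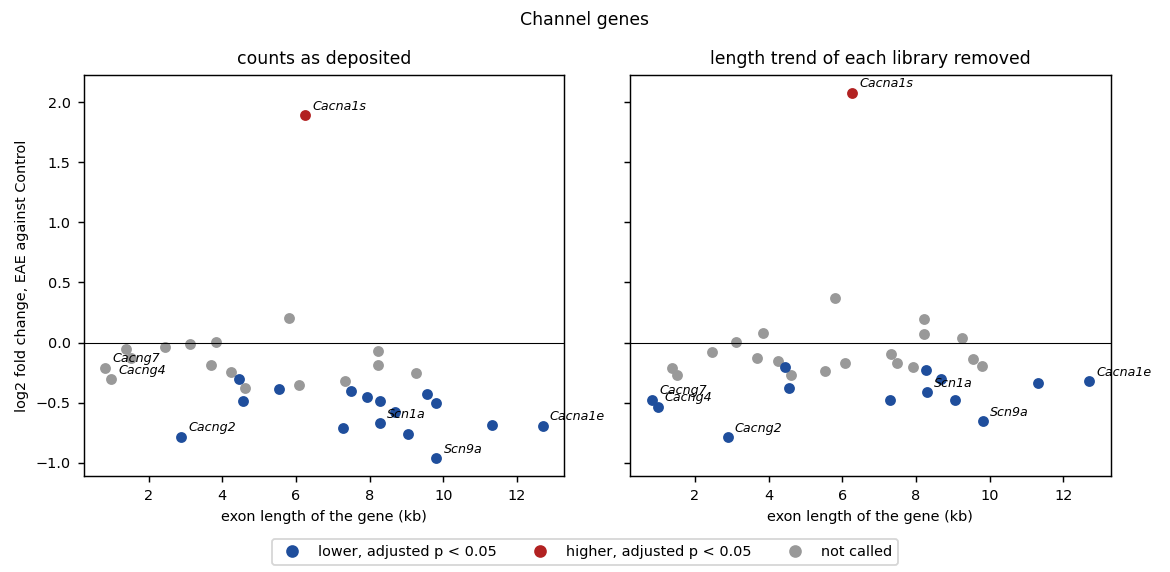
Log2 fold change of channel genes in EAE against Control by exon length in kb, with the counts as deposited (left) and after removal of each library's length trend (right). On the left the long genes lie lower (rho -0.55 over the 35 genes). On the right, where the correction takes the length trend out by design, rho is -0.02. Scn9a, Scn1a and Cacng2 are still lower there and Cacna1s is still higher.

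Channel genes were also called lower more often than all tested genes in EAE+EHP-101 against Control. This did not hold among genes of at least 6260 bases. In EAE+EHP-101 against Control 9 of the 35 genes (25.7%) were called lower, against 9.82 percent of all genes, and 0 were called higher, against 9.96 percent of all genes. No channel gene had an unadjusted p under 0.05 in the higher direction, against 18.3% of all genes. The libraries did not overlap, with the EAE+EHP-101 libraries lower, for 12 of the 35 genes and for 17.5 percent of all genes, and the median log2 difference was -0.20 over the 35 genes and 0.01 over all genes. The 9 genes were Scn9a, Scn1a, Cacng2, Cacnb4, Scn8a, Cacnb2, Scn2b, Scn2a and Cacna1c, with the values given above. Cacna1b (-0.36, edgeR adjusted p = 0.0624) and Cacna1e (-0.28, adjusted p = 0.115) were not called, although their libraries did not overlap. Cacna1b was called without Control replicate 3 (0.0226), EAE replicate 2 (0.0327) or EAE+EHP-101 replicate 1 (0.0455), and Cacna1e without EAE replicate 2 (0.0422).

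The count of 9 depended on single libraries and on length. It was 5 without Control replicate 2, 4 without EAE+EHP-101 replicate 2, 4 without EAE+EHP-101 replicate 3 and 14 without Control replicate 3, when Cacna1a, Cacna1b, Cacna1d, Cacna1i and Cacna2d2 were called as well. The count over all tested genes moved in the same direction, from 1645 lower with all libraries to 1300, 392, 589 and 2065 in the same order. After removal of the length trend 3 genes (8.57%) were called lower, against 4.75 percent of all genes, and 0 higher, against 4.53 percent. They were Scn9a (-0.49, edgeR adjusted p = 0.0383), Scn1a (-0.43, 0.0267) and Cacng2 (-0.77, 0.0128). Among genes of at least 6260 bases 33.3% of channel genes and 35.5% of all genes were called lower. Among shorter genes 3 of 17 channel genes (17.6%) and 7.19% of all genes were. Scn1a and Cacng2 were called lower under each of the alternatives.

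The compound's own comparison, EAE+EHP-101 against EAE, gave no call among the channel genes. By edgeR 0 of 35 were called higher, against 0.430 percent of all genes, and 0 lower, against 4.81 percent of all genes. At an unadjusted p under 0.05 there were 4 higher (Cacna1e, Scn2a, Cacna1b and Cacna1c), against 4.42% of all genes, and 1 lower (Cacna1s), against 11.7% of all genes. The Wald test of DESeq2 called 1 gene, Cacna1e, higher (adjusted p = 0.0167). The libraries did not overlap, with the EAE+EHP-101 libraries higher, for 5 of the 35 genes (14.3%), Cacna1e, Scn2a, Cacna1b, Cacna1h and Cacng3, and for 10.7 percent of all genes. The log2 difference was above 0 for 32 of the 35 genes and for 49.7% of all genes, with medians of 0.15 and -0.00.

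Cacna1e had the smallest p of this comparison among the channel genes. Its log2 difference was 0.41 (95% interval 0.15 to 0.67, edgeR adjusted p = 0.0811), a fold of 1.33, and it was called without EAE replicate 1 (0.53, adjusted p = 0.0453). Cacna1s gave -1.66 (interval -2.73 to -0.59, adjusted p = 0.0841) and was called without Control replicate 1 (adjusted p = 0.0465). Scn2a gave 0.24 (interval 0.05 to 0.44, adjusted p = 0.162), Cacna1b 0.35 (0.07 to 0.63, 0.168) and Cacna1c 0.34 (0.05 to 0.62, 0.203). For Scn1a, the most abundant alpha subunit, the difference was 0.05 (interval -0.20 to 0.30) and for Cacng2 0.02 (interval -0.30 to 0.33). The comparison shares its EAE libraries with EAE against Control.

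The number of channel genes above 0 in EAE+EHP-101 against EAE, 32 with all libraries, was 26 without EAE+EHP-101 replicate 1, 28 without EAE replicate 2, and between 26 and 34 with each library left out in turn. It was 30 with the length trend removed. The median over the 35 genes was 0.09 without EAE+EHP-101 replicate 1 and 0.08 without EAE replicate 2, against 0.15 with all libraries. With the length trend removed the median was 0.10, and 0.05 when EAE+EHP-101 replicate 1 was left out as well, a choice made after the data were seen. Across the 35 genes this log2 difference had a Spearman rho with length of 0.52, against 0.18 over all genes.

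Within the Control group the genes fell into different orders. Scn8a was 522, 479.6 and 371 CPM and Cacna1a 149, 136 and 100.4 CPM in Control replicates 1, 2 and 3, both lowest in replicate 3, while Scn3b was 30.2, 43.2 and 49.2 CPM and Cacna2d1 85.7, 112 and 124 CPM, both lowest in replicate 1. The 7 motor neuron markers summed to 652, 423 and 360 CPM in the same 3 libraries, against 525, 484 and 482 CPM in EAE+EHP-101 and 399, 459 and 583 CPM in EAE libraries. The part of sampled cord level or cell content in these differences was not tested.

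Genes that work with these channels also differed in EAE, where 16.7 percent of all tested genes, and 55.7% of those of at least 6260 bases, were called lower. Of 14 genes of the axon initial segment and node 9 were called lower in EAE and 0 higher, among them the potassium channel genes Kcnq3 (log2 -0.78) and Kcna2 (-0.61), the ankyrin G gene Ank3 (-0.53), which anchors sodium channels, and Cntnap2 (-0.70), which holds potassium channels beside the node. Nfasc, a node adhesion molecule, gave -0.01. Of 10 tested sodium channel modulators and leak channel genes 7 were called lower, with the sodium leak channel gene Nalcn (-0.48) and its partners Unc80 (-0.66) and Unc79 (-0.53), and Fgf14 (-0.47), a gating modulator. Of 13 presynaptic partners of calcium channels 12 were called lower, among them the active zone genes Erc2 (-0.45) and Erc1 (-0.32), the calcium sensor Syt2 (-0.98) and the scaffold Bsn (-0.59).

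Of 14 genes of calcium stores, pumps and exchangers 9 were called lower in EAE, among them the sodium-calcium exchanger Slc8a1 (-0.52), the plasma membrane pumps Atp2b3 (-0.87) and Atp2b1 (-0.38) and the store pump Atp2a2 (-0.40). Of 9 AMPA receptor complex genes, whose products stargazin accompanies, 5 were called lower, with Gria2 (-0.46), Gria3 (-0.29), Gria4 (-0.32) and Shisa6 (-0.44). Of 10 small GTPase and adaptor regulators, such as Gem and Rem2, 0 were called by edgeR at the adjusted p, and 2 had an unadjusted p under 0.05, among them Stac2 (-0.21). With the length trend removed the counts called lower were 5, 6, 6, 3, 1 and 0 for the initial segment, modulator, presynaptic, store and pump, AMPA receptor and regulator lists, against 10.1 percent of all genes, and 1 gene each of the initial segment, modulator and store lists was called higher. The median exon lengths of the initial segment and store lists were 7368.5 and 8311.5 bases.

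These lists, in EAE+EHP-101 against Control, had 6 of 14, 6 of 10, 7 of 13, 6 of 14, 3 of 9 and 1 of 10 genes called lower, in the same order of lists, against 9.82 percent of all genes and 35.5% of those of at least 6260 bases. With the length trend removed these counts were 2, 5, 4, 1, 0 and 0, against 4.75 percent of all genes, and 2 initial segment genes were called higher. Between EAE+EHP-101 and EAE 1 gene of all 6 lists was called, the adhesion molecule gene Nrcam, which was lower by a log2 difference of -0.21 (edgeR adjusted p = 0.0485).

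Over 12 general neuronal markers the median log2 difference in EAE against Control was 0.00. Of these 3 were called lower, against 16.7 percent of all genes, and 0 higher, against 20.2 percent of all genes. The 12 markers include some genes of the presynaptic list above. They summed to 11694 to 12351 CPM in EAE+EHP-101, 10929 to 12468 CPM in EAE and 10832 to 13206 CPM in Control libraries. These genes are shorter than the channel genes, with a median exon length of 2375 against 6260 bases. With the length trend removed their median was -0.04, with 2 called lower, against 10.1 percent of all genes, and 0 higher, against 15.3 percent. Of 9 spinal interneuron markers 5 were called lower and 1 higher, with the glycine transporter gene Slc6a5 (-1.24), the GABA synthesis gene Gad2 (-0.69) and the glutamate transporter gene Slc17a6 (-0.49) lower and the parvalbumin gene Pvalb (0.25) higher. The 9 interneuron markers summed to 821 to 959 CPM in EAE+EHP-101, 758 to 908 CPM in EAE and 1065 to 1165 CPM in Control libraries. Their median exon length was 2805 bases, and with the length trend removed 5 were called lower and 0 higher. Of 7 motor neuron markers 0 were called by edgeR in either direction, and 0 had an unadjusted p under 0.05.

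Markers of several other cell types also differed in EAE, where 16.7 percent of all genes were called lower and 20.2 percent higher. In lists this short, counts of 1 or 2 called genes cannot be told apart from those shares. Of 7 endothelial markers 7 were called lower in EAE (median -1.01), and of 7 microglial and 6 monocyte markers 5 each were called higher. Of 7 oligodendrocyte markers 1 was called lower and 2 higher, of 7 progenitor markers 2 lower, of 7 astrocyte markers 3 higher and of 6 fibroblast markers 5 higher. Of 7 smooth muscle and pericyte markers 3 were called lower and 1 higher, and of 6 Schwann cell markers 1 higher. The part of these cells in the channel gene differences was not tested.

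Promoters were read from RefSeq (GRCm38.p6) as 250 bases before to 50 bases after a start listed for a gene. Of the 35 genes 26 had an entry, with 37 promoters. Those of 4 genes are printed 5′ to 3′ on the gene's strand: Scn9a, with the smallest p in EAE, Scn1a, the most abundant alpha subunit, Cacng2, lower in both diseased groups, and Cacna1s, the gene that was higher. Capitals mark a GC box (GGGCGG or its reverse complement) or a CCAAT box, found on either strand.
Scn9a: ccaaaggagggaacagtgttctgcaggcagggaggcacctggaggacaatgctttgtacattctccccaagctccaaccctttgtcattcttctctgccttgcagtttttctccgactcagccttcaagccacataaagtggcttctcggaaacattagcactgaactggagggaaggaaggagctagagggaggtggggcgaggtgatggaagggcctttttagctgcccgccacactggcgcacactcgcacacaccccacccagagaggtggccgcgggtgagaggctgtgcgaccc
Scn1a: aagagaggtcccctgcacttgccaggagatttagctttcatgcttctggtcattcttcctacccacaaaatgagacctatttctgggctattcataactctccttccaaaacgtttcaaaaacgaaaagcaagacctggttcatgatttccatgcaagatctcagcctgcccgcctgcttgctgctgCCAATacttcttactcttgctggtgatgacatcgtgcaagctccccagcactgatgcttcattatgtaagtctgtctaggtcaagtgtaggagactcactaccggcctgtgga
Cacng2: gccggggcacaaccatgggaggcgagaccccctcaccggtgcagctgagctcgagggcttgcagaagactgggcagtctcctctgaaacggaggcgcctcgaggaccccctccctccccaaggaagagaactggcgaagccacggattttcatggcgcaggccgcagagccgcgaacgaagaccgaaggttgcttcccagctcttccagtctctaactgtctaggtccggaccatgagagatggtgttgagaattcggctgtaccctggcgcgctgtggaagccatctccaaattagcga
Cacna1s: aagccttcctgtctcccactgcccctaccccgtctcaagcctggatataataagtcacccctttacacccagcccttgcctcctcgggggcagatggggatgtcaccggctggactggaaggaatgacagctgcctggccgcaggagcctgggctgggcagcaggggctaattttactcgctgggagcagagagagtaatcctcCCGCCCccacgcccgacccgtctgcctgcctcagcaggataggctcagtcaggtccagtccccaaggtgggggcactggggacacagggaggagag
They lie at chr2:66634913-66635212, chr2:66440788-66441087 and chr15:78119231-78119530 on the minus strand and at chr1:136052561-136052860 on the plus strand. The Cacna1s window ends before base 136052901, where the counted exons of that gene begin. The GC content of the 4 windows was 57.3%, 47.3%, 61.0% and 63.0% in the order printed.

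Over all 37 promoters of the channel genes, a GC box stood in 43.2%, against 59.0% of 15402 promoters of tested protein-coding genes, a CCAAT box in 27.0% against 37.2%, and a TATA box (TATAAA) in 5.41% against 7.73%. The left and right elements of the site of the neuronal repressor REST were in 0 of the 37 and in 0.454% and 0.240% of all promoters, and the cyclic AMP response element (TGACGTCA) in 0 and in 2.79%. Both strands were searched. The median GC content was 59.7% in the channel promoters and 60.0% in all. The printed windows of Scn9a and Cacng2 hold none of these letters.

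The genes outside the family whose log2 CPM followed Scn9a most closely over the 9 libraries were Bbs7 (Pearson r = 0.994), Zbtb37 (0.987) and Pnma2 (0.984). For Cacnb4 they were Nova1 (0.993), Rab15 (0.991) and Zdhhc17 (0.991), and for Scn2a Rnf152 (0.997), Grb10 (0.991) and Csrnp3 (0.989), a neighbour of Scn2a on chromosome 2. The 9 libraries share the difference between groups, so these values describe likeness of pattern over groups as much as within them.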

How the data were processed

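Per the labels' protocols, 1 µg of total RNA per cord gave poly-A selected, stranded libraries, read from 1 end over 50 bp. The deposited table holds counts per gene, not normalised, under Entrez identifiers with exon lengths, per the file headers. The submitters' processing notes list, with no roles, DESeq2 1.20.0, featureCounts 1.6.1, HISAT2 2.1.0, Trimmomatic 0.36 and the mm10 build. Symbols for 25275 of 27179 identifiers came from a RefSeq table; the other 1904 held 0.311% to 0.619% of a library's counts.

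In R 4.3.3, edgeR 4.0.16 kept 16749 genes (filterByExpr), scaled libraries by TMM and fitted 1 quasi-likelihood model with 1 mean per group to all 9 libraries (prior degrees of freedom 5.28). P-values were adjusted over all tested genes. The code was tested on simulated data. No 2 libraries of a group agreed within sampling noise (chi-square per degree of freedom 6.64 to 27.5). The length trend of a library is a lowess curve (span 0.5) of its log2 level, relative to the mean of all libraries, on log length, used as an offset. Alternatives were DESeq2 size factors, library totals, no filter, at least 1 CPM in at least 3 libraries, the Wald test of DESeq2 1.42.0, only the 2 groups compared, a replicate block, the length trend removed, and each library left out. Some single family and list genes are not reported here, and every count, median and class sum includes them. Members and lists were chosen with earlier results of these data known. Intervals and tests cover the spread between these libraries only, and the depth limits genes below 1 CPM.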

Additional observations from a re-analysis of the deposited data

How the results depend on the processing

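The 16 channel genes lower in EAE against Control numbered 16 to 18 under the other scalings, filters, tool and group selection tried, and 13 with the length trend removed. They numbered 9 with the length trend removed and a replicate block, and 14 to 20 with each library left out. The count higher (1) became 0 under the stricter filter, which did not test Cacna1s, and 0 to 1 with each library left out. The 9 genes lower in EAE+EHP-101 against Control became 3 with the length trend removed, 3 when EAE+EHP-101 replicate 1 was also left out, 2 with the length trend removed and a replicate block, and 4 to 14 with each library left out. For EAE+EHP-101 against EAE DESeq2 gave 1 higher, and leaving out libraries gave 0 to 1 in each direction.

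Over all genes, removing the length trend gave 1698 lower in EAE against Control, and 796 lower and 758 higher in EAE+EHP-101 against Control. Without EAE+EHP-101 replicate 1 as well these were 1682, 905 and 1057, with 29 higher in EAE+EHP-101 against EAE. With the trend removed and a replicate block they were 1327 lower and 2211 higher, 475 lower and 430 higher, and 44 higher. The count of 72 higher in EAE+EHP-101 against EAE was 137 by DESeq2, 169 with only the 2 groups, and 37 without Control and EAE+EHP-101 replicates 1. With each library left out, genes lower and higher numbered 2211 to 3696 and 2160 to 3399 in EAE against Control, 348 to 921 and 22 to 249 in EAE+EHP-101 against EAE, and 392 to 2065 and 237 to 1712 in EAE+EHP-101 against Control. The cause was not tested.

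No pairing of mice by replicate number was seen. Deviations of same-numbered libraries correlated between -0.187 and 0.123, and those of differently numbered libraries between -0.175 and 0.246. The replicate block gave 15 channel genes lower in EAE against Control, 9 in EAE+EHP-101 against Control and 0 in EAE+EHP-101 against EAE. Over all genes it gave 44 higher in EAE+EHP-101 against EAE and 1095 higher in EAE+EHP-101 against Control. For single channel genes, 68 results were lost to the threshold, 42 gained and 1984 kept their side, and no called gene changed sign. Depth limits Cacna1f and Cacna1s, below 2 CPM in every library.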
